A study of Homo sapiens with 4 samples.

Results

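The noncoding host genes of small nucleolar RNAs (snoRNAs) examined here were GAS5, ZFAS1, SNHG1, SNHG5, SNHG6, SNHG7, SNHG8, SNHG12, SNHG15 and SNHG16, which were picked by gene name as 10 of the 50868 genes in the files. All 10 are annotated as long noncoding RNAs (lncRNAs) in GENCODE release 44, and all 10 were expressed at a mean of at least 1 FPKM (fragments per kilobase of gene model and per 1000000 counted) over the libraries. RNA-seq had been performed on Jurkat cells, an immortalised human T lymphoblast line labelled wild type (WT), after 24 h under 4 conditions. These were the vehicle DMSO, 0.5 μM JQ1 (an inhibitor of the bromodomains of BET proteins), DMSO with 150 ng/ml phytohaemagglutinin (PHA, a lectin that stimulates T cells), and 0.5 μM JQ1 with 150 ng/ml PHA. The study asked how BET inhibition acts on T cells with and without stimulation, and 1 library per condition was sequenced, so no difference below has a replicate check or a test.

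A snoRNA host gene is transcribed by RNA polymerase II, and its introns, once spliced out, are trimmed to snoRNAs that guide chemical modification of ribosomal RNA. C/D box snoRNAs guide 2′-O-methylation and H/ACA box snoRNAs guide pseudouridylation. The spliced exons of such a host, as in GAS5 (growth arrest-specific 5), carry little coding capacity, are often translated from short reading frames and are then removed by nonsense-mediated decay, so that the level of a host RNA depends on both its synthesis and this decay. Many hosts begin with a C followed by a run of pyrimidines (a 5′ terminal oligopyrimidine, or TOP, start), which in ribosomal protein mRNAs ties translation to growth signals.

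Transcription starts were read from RefSeq promoters on GRCh38.p14, in which 8 of the 10 genes were matched and SNHG6 and SNHG15 were not. The 50 bases around each start are shown because the start sequence is a feature these genes are known for, with 25 bases before the start base, 5′ to 3′. Capitals mark a run of at least 5 C or T that contains the start base.
GAS5: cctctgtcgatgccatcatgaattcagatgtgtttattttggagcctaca
ZFAS1: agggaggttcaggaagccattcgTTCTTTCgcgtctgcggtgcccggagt
SNHG1: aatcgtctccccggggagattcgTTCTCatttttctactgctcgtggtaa
SNHG5: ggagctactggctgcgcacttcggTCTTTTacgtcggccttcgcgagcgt
SNHG7: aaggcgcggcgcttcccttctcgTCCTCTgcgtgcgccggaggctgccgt
SNHG8: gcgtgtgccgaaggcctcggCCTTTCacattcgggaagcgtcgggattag
SNHG12: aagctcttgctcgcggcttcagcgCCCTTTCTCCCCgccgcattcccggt
SNHG16: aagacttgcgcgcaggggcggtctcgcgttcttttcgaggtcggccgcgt

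These windows are chr1:173869021-173869070 (minus strand) for GAS5, chr20:49278617-49278666 (plus strand) for ZFAS1, chr11:62855861-62855910 (minus strand) for SNHG1, chr6:85678709-85678758 (minus strand) for SNHG5, chr9:136728160-136728209 (minus strand) for SNHG7, chr4:118278737-118278786 (plus strand) for SNHG8, chr1:28581849-28581898 (minus strand) for SNHG12 and chr17:76557739-76557788 (plus strand) for SNHG16. The start base lay inside such a run in 6 of the 8 genes, against 9.60% of 35116 RefSeq promoters (250 bases before to 50 bases after the start). Each of these 6 runs began before the start base, and that of SNHG8 ended at it, so a run counted here is not always a TOP start. SNHG12 had the longest run, with 12 bases, followed by ZFAS1 with 7. The annotated starts of GAS5 and SNHG16 are the bases A and G and lie outside the loci of the files, by 163 bases and 2 bases, respectively. Those of SNHG12 and ZFAS1 lie inside their loci, but 1110 bases and 464 bases from the 5′ ends of these loci. An E-box (CACGTG, a palindrome that MYC can bind) was found in 1 of the 8 promoters, that of SNHG7, against 7.30% of all promoters. TATAAA, searched on both strands, was found in the promoters of SNHG1 and SNHG7, 2 of 8, against 11.5%.

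RefSeq places 37 snoRNAs inside the 10 genes, of 60 to 134 bases, with 28 named as C/D box and 8 as H/ACA box snoRNAs and 1 under a locus name without a class. GAS5 holds 11 of them, SNHG1 9, SNHG12 4, ZFAS1 and SNHG16 3 each, SNHG5 and SNHG7 2 each, and SNHG6, SNHG8 and SNHG15 1 each. C/D box snoRNAs alone are named in 5 of the genes, and at least 1 H/ACA box snoRNA is named in GAS5, SNHG7, SNHG8, SNHG12 and SNHG15. The following sequences, read from GRCh38 5′ to 3′ on the strand of the host, are the only snoRNAs of SNHG8 and SNHG15, whose RNA was lowest relative to the controls under JQ1, and 1 each from 5 hosts with smaller or opposite differences. In C/D box snoRNAs capitals mark the C box core TGATGA and the D box CTGA, and in H/ACA box snoRNAs the ACA near the 3′ end.
SNORA24 (in SNHG8): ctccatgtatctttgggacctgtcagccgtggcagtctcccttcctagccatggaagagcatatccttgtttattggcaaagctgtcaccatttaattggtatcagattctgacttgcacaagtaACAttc
SNORA9 (in SNHG15): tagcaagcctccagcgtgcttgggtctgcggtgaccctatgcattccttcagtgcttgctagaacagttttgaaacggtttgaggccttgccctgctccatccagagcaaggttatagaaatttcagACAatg
SNORD44 (in GAS5): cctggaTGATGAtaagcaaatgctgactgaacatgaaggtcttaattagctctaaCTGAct
SNORD27 (in SNHG1): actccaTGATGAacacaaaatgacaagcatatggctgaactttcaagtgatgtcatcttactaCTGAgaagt
SNORD1B (in SNHG16): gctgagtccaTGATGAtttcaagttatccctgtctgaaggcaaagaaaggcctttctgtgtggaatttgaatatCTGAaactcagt
SNORD50A (in SNHG5): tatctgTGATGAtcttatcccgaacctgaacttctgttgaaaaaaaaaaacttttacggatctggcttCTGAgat
SNORA61 (in SNHG12): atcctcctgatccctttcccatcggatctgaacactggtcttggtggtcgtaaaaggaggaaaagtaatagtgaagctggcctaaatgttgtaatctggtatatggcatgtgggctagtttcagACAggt

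Their positions are chr4:118279190-118279320 for SNORA24, chr7:44985378-44985510 for SNORA9, chr1:173865968-173866028 for SNORD44, chr11:62855012-62855083 for SNORD27, chr17:76561108-76561193 for SNORD1B, chr6:85677294-85677368 for SNORD50A and chr1:28579764-28579893 for SNORA61. Both cores were found letter for letter in 16 of 27 C/D box snoRNAs searched and the ACA in 7 of 8 H/ACA box snoRNAs. The snoRNAs themselves could not be followed in these libraries. The files list 30 snoRNA genes of their own, 11 of them with at least 10 counts in a library, but 0 lie within the loci of these 10 genes, so the values below are those of the host RNAs.

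The 4 libraries held between 18620954 and 19685401 counts. Of 11 T cell markers, 11 had a mean of at least 1 FPKM, and their summed level was 692.8 to 1233 FPKM. B cell markers reached 1.01 to 7.57 FPKM in sum through CD79A (7.48 FPKM in DMSO, 1.06 in JQ1, 6.33 in DMSO + PHA and 1.01 in JQ1 + PHA), whose level was lower in both JQ1 libraries. Of the myeloid, erythroid and epithelial markers 0 reached a mean of 1 FPKM, with the highest sum at 0.395 FPKM. The part of CD79A in the values of the host genes was not tested. Below, CPM are counts per 1000000 counts of a library, a ratio is the log2 of a gene's share of all counts in 1 library over its share in another, and brackets hold its 95% exact (Clopper-Pearson) interval, which covers counting error only. Medians over genes and counts of genes below 0 or past a fold threshold used log2 ratios of FPKM instead, after adding 0.1 FPKM. So did rankings by the mean of both JQ1 ratios. In bulk RNA a lower share may come from fewer cells that express a gene or from less RNA per cell, and these cannot be told apart. A share also depends on the counts of all other genes in its library.

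Together the 10 genes held 629.0 CPM in the DMSO library, 401 CPM in JQ1, 524 CPM in DMSO + PHA and 399.6 CPM in JQ1 + PHA. Both JQ1 libraries therefore stood below both DMSO libraries. The summed ratio of JQ1 to DMSO was -0.65 [-0.69, -0.61] without PHA and -0.39 [-0.44, -0.35] with PHA. SNHG1 and GAS5 made up 45.9% to 49.7% of the sum in each library. Without that pair the sums were 316 CPM in DMSO, 214 CPM in JQ1, 283.5 CPM in DMSO + PHA and 208 CPM in JQ1 + PHA, in the same order of libraries.

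**Figure D1:**
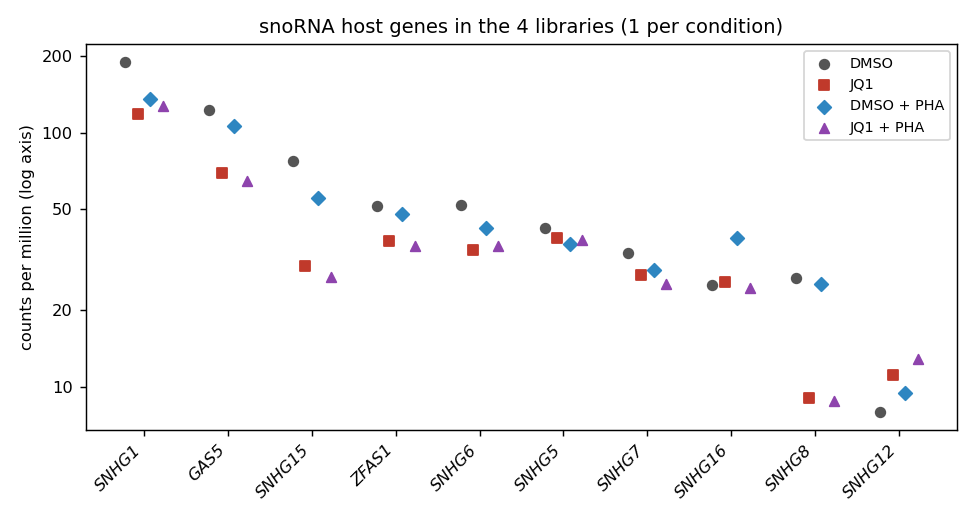
Counts per 1000000 counts of a library (CPM, log axis) of the 10 snoRNA host genes in the 4 libraries, 1 point per library, ordered by the mean. SNHG8 and SNHG15 show the widest gap between the DMSO and JQ1 libraries (SNHG8, 26.7 and 25.5 CPM against 9.05 and 8.75 CPM), SNHG12 lies higher in both JQ1 libraries, and SNHG16 stands apart in the DMSO + PHA library at 38.4 CPM.

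On the FPKM scale, which divides by gene length, SNHG6 had the highest mean level (19.97 FPKM, from 16.7 to 25.3 over the libraries) and SNHG12 the lowest (1.12 FPKM, from 0.862 to 1.39). Between them followed ZFAS1 with a mean of 14.9 FPKM, SNHG1 with 10.0, SNHG8 with 9.60, GAS5 with 7.72, SNHG15 with 5.98, SNHG7 with 5.83, SNHG5 with 3.63 and SNHG16 with 2.24 FPKM. Neighbours in this order overlapped over the 4 libraries from SNHG6 down to SNHG7, whereas SNHG7 and SNHG5, SNHG5 and SNHG16, and SNHG16 and SNHG12 did not. The order depended on the length used. The length implied by a gene's counts and FPKM was greater than the span of its locus in 6 of the 10 genes, for example 14273 bases for SNHG1 in a locus of 3927 bases. Per kilobase of the Ensembl canonical transcript in GENCODE 44, the order began with SNHG1 (mean 123 counts per kilobase and 1000000 counts), then GAS5 (118) and SNHG16 (57.1), and SNHG6 took rank 5. Ratios of the shares of counts between libraries for 1 gene do not involve the length. Log2 ratios of FPKM do so through the 0.1 FPKM added to each value. For SNHG12 the ratio of JQ1 to DMSO without PHA was 0.44 by FPKM and 0.48 by shares.

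JQ1 was first compared with DMSO without PHA. Of the 10 genes, 2 were at least 2-fold lower with JQ1 (SNHG8 and SNHG15) and 0 at least 2-fold higher, where 8.65% of the 11503 genes with a mean of at least 1 FPKM were 2-fold lower and 5.22% were 2-fold higher. The ratio was below 0 in 8 of the 10, against 5838 of the 11503 genes tested. The median log2 ratio of FPKM (after adding 0.1 FPKM) was -0.52, with -0.01 over all genes tested, whose middle 50% of values lay between -0.44 and 0.37. At a lower threshold of 1.5-fold (0.585 on the log2 scale), 5 of the 10 genes were lower, against 19.3% of all genes tested. The call of SNHG6 was at the edge of this threshold, with a log2 ratio of FPKM of -0.595. It fell short after TMM scaling (-0.57), DESeq2 size factors (-0.55), centring on the median gene (-0.582) or a pseudocount of 1 FPKM (-0.57).

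SNHG8, a short host on chr4:118278709-118279823 that carries SNORA24, had 502 counts in DMSO, 178 in JQ1, 501 in DMSO + PHA and 163 in JQ1 + PHA. The DMSO libraries were alike and stood well above the JQ1 libraries. The ratio of JQ1 to DMSO was -1.56 [-1.82, -1.31] without PHA and -1.54 [-1.80, -1.28] with it, or 2.95-fold and 2.91-fold lower. SNHG15, on chr7:44983023-44986961 and host of SNORA9, had 1456 counts in DMSO, 588 in JQ1, 1091 in DMSO + PHA and 502 in JQ1 + PHA. Both JQ1 libraries lay below both DMSO libraries, and the DMSO + PHA library lay between them and DMSO. The ratio of JQ1 to DMSO for SNHG15 was -1.37 [-1.51, -1.23] without PHA and -1.04 [-1.20, -0.89] with PHA.

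GAS5, the host with the most snoRNAs, whose files' locus is chr1:173863900-173868882, had 2301 counts (122 CPM) in DMSO, 1364 (69.3 CPM) in JQ1, 2082 (106 CPM) in DMSO + PHA and 1196 (64.2 CPM) in JQ1 + PHA. The JQ1 libraries were again both below the DMSO libraries, with ratios of -0.82 [-0.92, -0.72] without PHA and -0.72 [-0.82, -0.62] with PHA, short of 2-fold. ZFAS1 (chr20:49278178-49295738, host of the SNORD12 family) had 966, 737, 941 and 665 counts in DMSO, JQ1, DMSO + PHA and JQ1 + PHA. It followed the same order at a smaller size, with ratios of -0.46 [-0.60, -0.32] and -0.42 [-0.57, -0.28] without and with PHA.

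SNHG1, host of SNORD22 and of SNORD25 to SNORD31, lies on chr11:62851988-62855914. It had the most counts of the 10 genes, 3582 (190.4 CPM) in DMSO, 2331 (118.5 CPM) in JQ1, 2659 (135 CPM) in DMSO + PHA and 2378 (128 CPM) in JQ1 + PHA. The DMSO library stood above the other 3, which lay close together. The ratio of JQ1 to DMSO was -0.68 [-0.76, -0.61] without PHA, whereas with PHA it was -0.08 [-0.16, -0.001]. SNHG6 (chr8:66921684-66926398, host of SNORD87) had 978 counts in DMSO, 676 in JQ1, 826 in DMSO + PHA and 668 in JQ1 + PHA. Its ratio was -0.60 [-0.74, -0.46] without PHA and -0.23 [-0.38, -0.08] with PHA, both below 0.

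SNHG7 (chr9:136721366-136728184, host of SNORA17A and SNORA17B) and SNHG5 (chr6:85660950-85678736, host of SNORD50A and SNORD50B) differed little under JQ1. SNHG7 had 634 counts in DMSO, 543 in JQ1, 564 in DMSO + PHA and 472 in JQ1 + PHA, and its ratios of -0.29 [-0.46, -0.12] without PHA and -0.18 [-0.36, 0.002] with PHA were small. SNHG5 had 793, 756, 718 and 702 counts in the same order of libraries. Its ratios to DMSO were -0.13 [-0.28, 0.01] and 0.05 [-0.10, 0.20], so no difference between JQ1 and DMSO beyond counting error was detectable for SNHG5 at this depth.

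SNHG12, on chr1:28578538-28582983, hosts SNORD99, SNORA16A, SNORA44 and SNORA61 and was the gene with the fewest counts. It had 149 counts (7.92 CPM) in DMSO, 218 (11.1 CPM) in JQ1, 185 (9.40 CPM) in DMSO + PHA and 238 (12.8 CPM) in JQ1 + PHA. Here the JQ1 libraries were above the DMSO libraries, opposite to most of the other hosts. The ratio of JQ1 to DMSO was 0.48 [0.18, 0.80] without PHA and 0.44 [0.16, 0.73] with PHA, or 1.40-fold and 1.36-fold higher. SNHG16 (chr17:76557766-76565348, host of SNORD1A, SNORD1B and SNORD1C) had 473 counts in DMSO, 506 in JQ1, 755 in DMSO + PHA and 457 in JQ1 + PHA. Only the DMSO + PHA library stood apart, so the ratio of JQ1 to DMSO was 0.03 [-0.15, 0.22] without PHA and -0.64 [-0.82, -0.48] with PHA.

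**Figure D2:**
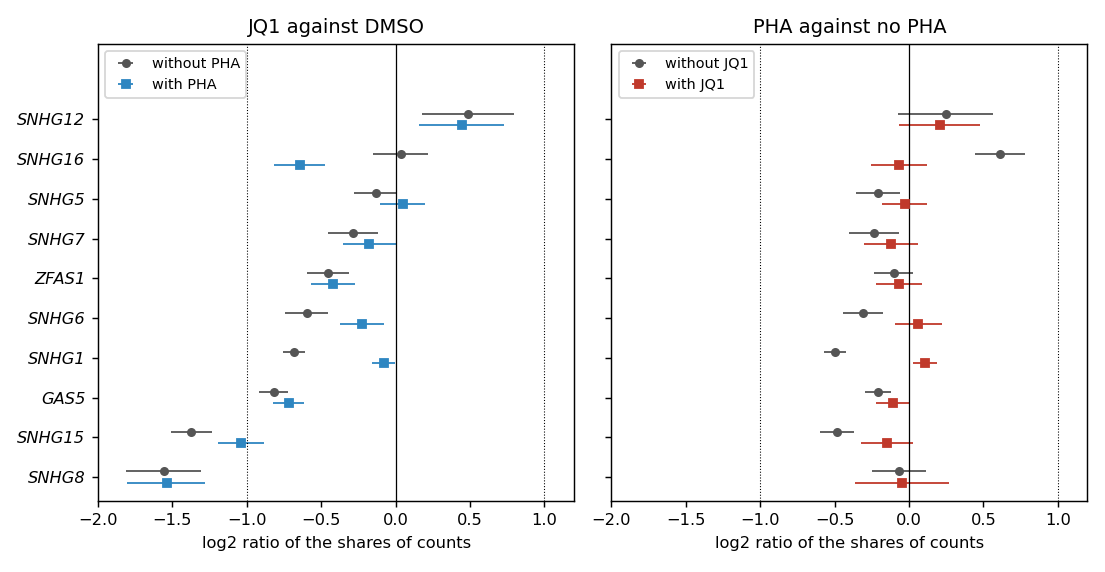
Log2 ratio of the shares of counts for each host gene, for JQ1 against DMSO (left) and PHA against no PHA (right), with 95% counting intervals as bars and dotted lines at 2-fold. SNHG8 and SNHG15 lie at or beyond 2-fold in both JQ1 comparisons (SNHG8, -1.56 and -1.54). On the left SNHG1 and SNHG16 differ most between the presence and absence of PHA, and on the right no gene reaches 2-fold.

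The same comparison was made in the presence of PHA. SNHG8 and SNHG15 were again the 2 genes at least 2-fold lower, with 0 at least 2-fold higher, beside 8.0% and 3.69% of all genes tested. The call of SNHG15 was at the edge of the threshold, since its log2 ratio of FPKM was -1.02 as deposited and fell short of 2-fold after TMM scaling (-0.97), DESeq2 size factors (-0.96), centring on the median gene (-0.998) or a pseudocount of 1 FPKM (-0.86). The median of the 10 was -0.32, with -0.02 over all genes tested. Of the 10, 8 were below 0, against 5923 of the 11503 genes tested. SNHG5 and SNHG12 were the genes above 0. At 1.5-fold 4 of the 10 were lower, against 17.8% of all genes tested. Of these, SNHG16 (-0.618 by FPKM) fell short after TMM scaling (-0.57), DESeq2 size factors (-0.562) or a pseudocount of 1 FPKM (-0.455). After centring on the median gene it did not (-0.598).

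The response to JQ1 was then compared between stimulated and unstimulated cells as the difference of both log2 ratios, with PHA minus without, and a delta-method counting interval in brackets. These comparisons and those of PHA rest on the same 4 libraries and are not independent of each other. The difference was 0.60 [0.49, 0.71] for SNHG1 and -0.68 [-0.92, -0.43] for SNHG16. Both exceeded 1.5-fold, a threshold chosen after the values were seen, with 5.25% of all genes tested at least 1.5-fold higher with PHA and 7.27% at least 1.5-fold lower. For SNHG6 the difference was 0.37 [0.17, 0.58] and for SNHG15 0.33 [0.13, 0.54], and in the remaining 6 genes the interval held 0. SNHG8 had a difference of 0.02 [-0.33, 0.38] and GAS5 of 0.10 [-0.04, 0.24], so that their ratios under JQ1 were not distinguishable with and without PHA. With 1 library per condition, it was not tested whether any of these differences exceeds the spread between cultures.

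PHA was then compared with no PHA. In DMSO, 0 of the 10 genes were at least 2-fold higher or lower, where 2.1% of all genes tested were higher and 1.19% lower. The median log2 ratio of FPKM was -0.21, against -0.01 over all genes tested. Of the 10, 8 were below 0, against 5877 of the 11503 genes tested. SNHG1 (-0.50 [-0.57, -0.42]) and SNHG15 (-0.48 [-0.60, -0.37]) were the lowest with PHA, each about 1.4-fold. SNHG16 was the highest at 0.61 [0.44, 0.78], or 1.53-fold, and the 1 gene at least 1.5-fold higher, against 5.59% of all genes tested. That call was at the edge of the threshold, since its log2 ratio of FPKM was 0.585. It fell short after TMM scaling (0.573), DESeq2 size factors (0.57) or a pseudocount of 1 FPKM (0.432), but not after centring on the median gene (0.592). In this comparison the interval held 0 for ZFAS1, SNHG8 and SNHG12.

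In the presence of JQ1 the PHA ratio was nearer to 0 than in DMSO in each of the 10 genes. The PHA ratios of FPKM over all genes tested were also less spread in JQ1. Their lower and upper quartiles were -0.163 and 0.165 in DMSO and -0.106 and 0.099 in JQ1. The narrowing was therefore not particular to the hosts, and whether it was stronger in them was not tested. Again 0 of the 10 genes reached 2-fold in either direction, beside 1.04% of all genes tested that were higher and 1.03% that were lower. The ratios lay between -0.15 [-0.32, 0.03] for SNHG15 and 0.21 [-0.07, 0.48] for SNHG12, and only that of SNHG1, 0.11 [0.03, 0.19], had an interval without 0. The summed ratio of the 10 genes was -0.26 [-0.30, -0.22] for PHA in DMSO and -0.01 [-0.05, 0.04] for PHA in JQ1.

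Several of these genes share a bidirectional start with a protein-coding gene or overlap one. ZBTB37, a zinc finger gene, starts on the opposite strand to GAS5, and the loci overlap by 801 bases in the files. ZBTB37 had 600 counts in DMSO, 1554 in JQ1, 1857 in DMSO + PHA and 1455 in JQ1 + PHA, so that the DMSO library was the lowest where it was the highest for GAS5. The ratio of JQ1 to DMSO for ZBTB37 was 1.31 [1.17, 1.45] without PHA and -0.27 [-0.37, -0.17] with PHA, while it was below 0 in both for GAS5.

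ZNFX1, which encodes an RNA helicase-like zinc finger protein, starts opposite ZFAS1 with an overlap of 249 bases. Its 1478, 1199, 1742 and 1025 counts in DMSO, JQ1, DMSO + PHA and JQ1 + PHA gave ratios of -0.37 [-0.48, -0.26] without PHA and -0.69 [-0.80, -0.57] with PHA, in the direction of ZFAS1. SLC3A2, the heavy chain of heterodimeric amino acid transporters, starts 188 bases from SNHG1 without overlap. It had 1505, 713, 1725 and 768 counts in the same order and ratios of -1.14 [-1.27, -1.01] and -1.09 [-1.21, -0.96]. Thus SLC3A2 was lower with JQ1 by similar amounts with and without PHA, whereas SNHG1 was not.

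**Figure D3:**
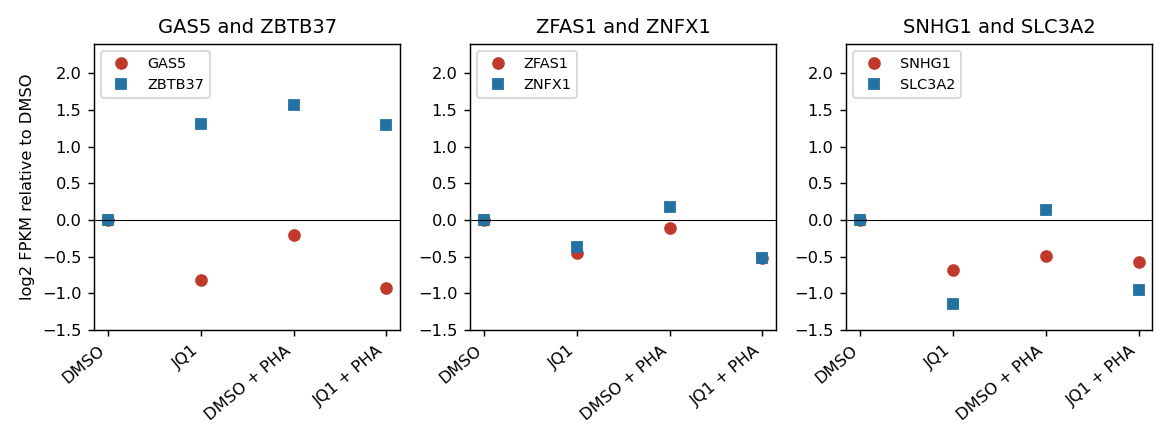
Log2 FPKM relative to the DMSO library in the 4 libraries (1 each) for GAS5, ZFAS1 and SNHG1 (circles) and the protein-coding gene that starts opposite each (squares). ZBTB37 lies above its DMSO level in the other 3 libraries while GAS5 lies below, ZNFX1 lies close to ZFAS1 in both JQ1 libraries, and SLC3A2 is lowest in both JQ1 libraries.

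Other overlaps were smaller in counts or extent. FAM69B overlaps SNHG7 by 2685 bases and had 223 counts in DMSO, 22 in JQ1, 174 in DMSO + PHA and 28 in JQ1 + PHA, a ratio of -3.41 [-4.11, -2.77] without PHA and -2.56 [-3.19, -1.97] with PHA. TRNAU1AP, which overlaps SNHG12 by 8 bases, had 404 to 490 counts, and GAS5-AS1, which overlaps GAS5 by 42 bases, had 11 to 25. MCMDC2, which overlaps SNHG6 by 365 bases, had 0 to 5 counts, and ST6GALNAC2, which overlaps SNHG16 by 1639 bases, had 0 counts in each of the 4 libraries. How the counting treated strand is not given in the sources used here, so reads in the overlaps of GAS5, ZFAS1 and SNHG7 may have been counted to either gene.

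Genes of the same pathway were set beside the 10 hosts. For comparison with each list, 8.65% of all genes tested were at least 2-fold lower with JQ1 without PHA and 8.0% with PHA. The shares at least 2-fold higher were 5.22% and 3.69%. Of 16 other noncoding snoRNA hosts 11 had a mean of at least 1 FPKM, and 5 of these were at least 2-fold lower with JQ1 in each of both comparisons, 4 of them shared, and 0 higher. Their medians were -0.98 without PHA and -0.94 with PHA. SNHG4 and SNHG3 had the lowest mean of both ratios. SNHG4 had 528 counts in DMSO, 128 in JQ1, 569 in DMSO + PHA and 129 in JQ1 + PHA. SNHG3 had 2906, 898, 2252 and 821 counts in that order. DANCR had 365, 564, 327 and 197 counts and SNHG14 2481, 3727, 3191 and 3055, so that without PHA both were higher with JQ1, at 0.56 [0.37, 0.76] and 0.52 [0.45, 0.60]. With PHA the ratio of DANCR was on the other side of 0, at -0.65 [-0.91, -0.39], and that of SNHG14 was 0.02 [-0.06, 0.09].

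Among 32 protein-coding snoRNA hosts, 2 were at least 2-fold lower and 0 higher in each JQ1 comparison, 1 of them (DKC1) in both, with medians of -0.36 without PHA and -0.31 with PHA. DKC1, the pseudouridine synthase dyskerin, was lowest by the mean of both ratios at -1.20 [-1.28, -1.12] and -1.08 [-1.16, -1.0], followed by NOP56, a core C/D snoRNP protein, at -1.12 [-1.18, -1.06] and -0.85 [-0.91, -0.79]. EEF2, a translation elongation factor, and RPS2, a small-subunit ribosomal protein, were highest by the mean of both ratios, at 0.19 [0.17, 0.21] and 0.23 [0.19, 0.28] without PHA and 0.37 [0.35, 0.39] and 0.47 [0.42, 0.51] with PHA. DKC1 and NOP56 are also in the list of proteins that build snoRNPs.

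Of 19 core and assembly proteins of snoRNPs 10 were at least 2-fold lower with JQ1 without PHA and 4 with PHA, 0 higher in both, and the medians were -1.0 and -0.60. SNU13, which binds the C/D motif, had 2617 counts in DMSO, 593 in JQ1, 2306 in DMSO + PHA and 1436 in JQ1 + PHA, and GAR1, an H/ACA core protein, had 1533, 622, 1412 and 546. The highest of the list were RPAP3 at 0.15 [0.07, 0.23] without PHA and SHQ1, an assembly factor of dyskerin, at 0.41 [0.33, 0.49] with PHA, although SHQ1 was at -0.29 [-0.36, -0.22] without PHA. Of 14 nonsense-mediated decay factors 0 were 2-fold lower or higher in either JQ1 comparison, and their medians were 0.01 and 0.13. UPF3A had 928, 1833, 1185 and 1755 counts in DMSO, JQ1, DMSO + PHA and JQ1 + PHA, a ratio of 0.92 [0.80, 1.03] without PHA, and SMG1, the kinase of UPF1, had a ratio of 0.64 [0.61, 0.68]. MAGOH, of the exon junction complex, was the lowest by the mean of both ratios, at -0.69 [-0.82, -0.55] without PHA.

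**Figure D4:**
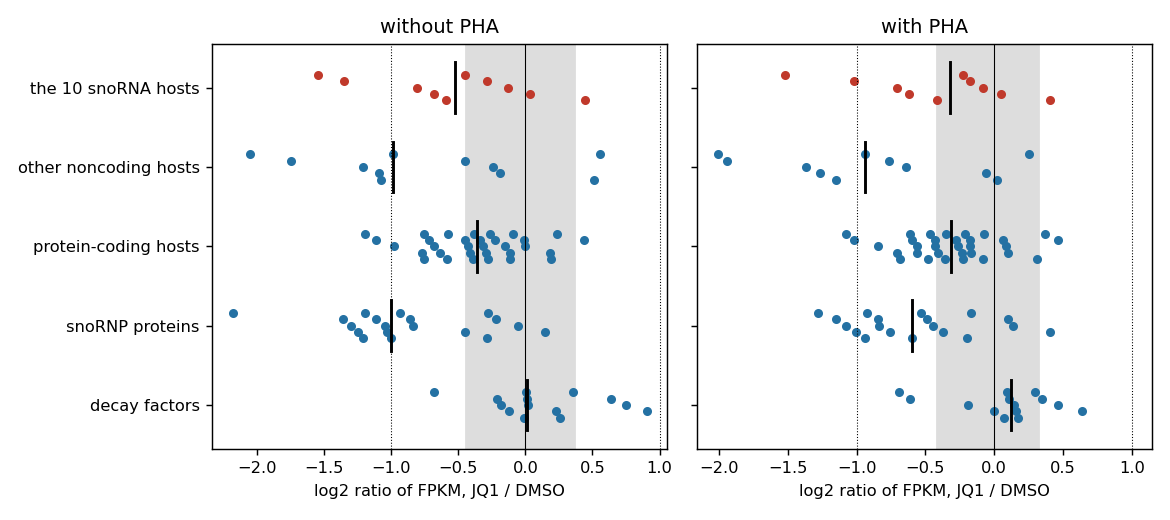
Log2 ratio of FPKM (0.1 FPKM added), JQ1 against DMSO without PHA (left) and with PHA (right), for each gene of 5 lists with a mean of at least 1 FPKM. Black bars are list medians (-0.52 and -0.32 for the 10 snoRNA hosts), grey bands hold the middle 50% of all genes tested and dotted lines mark 2-fold. The lowest value is that of the snoRNP protein SNU13 without PHA (-2.18) and of the noncoding host SNHG4 with PHA (-2.01). The decay factors have medians near 0 (0.01 and 0.13).

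Among the 3277 genes with a mean of at least 10 FPKM, those whose profile over the 4 libraries lay nearest to the median profile of the 10 hosts were LSM3, EIF3D, ACOT7, RP11-651P23.4 and ASUN. The measure was the root mean square distance of log2 FPKM, centred for each gene, and it was 0.015 to 0.027. The median profile stood at 0.31 in DMSO, -0.21 in JQ1, 0.11 in DMSO + PHA and -0.18 in JQ1 + PHA. LSM3, a subunit of Sm-like complexes on RNA, had 28.1 FPKM in DMSO, 19.97 in JQ1, 24.6 in DMSO + PHA and 20.2 in JQ1 + PHA.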

How the data were processed

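RNA-seq of 4 libraries of Jurkat cells was used, 1 per condition, grouped by their labels. The authors aligned reads to GRCh38 with Hisat2 (2.0.4) and deposited counts per gene, without normalization, and FPKM. The submitters' processing notes also name TopHat2 2.0.9 and Cufflinks 2.1.1. The methods name a stranded library kit and the labels another kit, and the counter, its strand setting and the annotation release are not given in the sources used here. FPKM deposited by the authors equal the counts divided by a length per gene and the library total.

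After adding 0.1 FPKM, log2 ratios were taken, and the calls past 2-fold were counted among 11503 genes whose mean FPKM was 1 or more. For single genes the ratio of the shares of counts was given with a 95% Clopper-Pearson interval, and the difference of 2 ratios with a delta-method interval. No fold was given where a library had 3 counts or fewer. The intervals cover counting error only. Depth was 18620954 to 19685401 counts, at which 3 counts are 0.152 to 0.161 CPM.

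All 10 genes were named, with their overlapping or divergent neighbours, the 2 largest rises and 2 largest falls of each related list by the mean JQ1 ratio, and the 5 genes nearest to the median profile. A gene that this rule names among the related lists is not reported here. Divergent meant 5′ ends within 2000 bases. The genes and lists were chosen with earlier results of these data known. Loci are those of the files on GRCh38. Of the 10, the start was the same as in GENCODE 44 in 3 and the end in 4. Promoters and snoRNA positions were from RefSeq, which shares the chromosome lengths. The ratio and interval steps were tested on simulated data. Alternatives were a pseudocount of 1 FPKM, TMM factors (edgeR 4.0.16) and size factors (DESeq2 1.42.0) from the counts, centring on the median gene, the filter on low values and a 1.5-fold threshold. Tables were handled with pandas 2.3.3 and numpy 2.4.6, intervals with scipy 1.17.1 and plots with matplotlib 3.10.9, in Python 3.11.15, and scaling factors in R 4.3.3.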

Additional observations from a re-analysis of the deposited data

Results flagged for a closer look

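In 4 genes a ratio had opposite signs under the same treatment in the presence and absence of the other agent, and with 1 library per condition the difference was not tested between cultures. The JQ1 ratio of SNHG16 was above 0 without PHA and below 0 with PHA, a difference of -0.68 on the log2 scale, and its PHA ratio differed by the same -0.68 between DMSO and JQ1, since both use the same 4 counts. The intervals of its JQ1 ratio without PHA and of its PHA ratio in JQ1 held 0. The PHA ratio of SNHG1 was below 0 in DMSO and above 0 in JQ1, a difference of 0.60, with neither interval holding 0. That of SNHG6 did the same with a difference of 0.37, although the interval of its ratio in JQ1 held 0. The JQ1 ratio of SNHG5 differed by 0.18 between PHA and no PHA, and both of its intervals held 0.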

How the results depend on the processing

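Of the 40 log2 ratios of the 10 genes, each recomputed under 4 alternatives (a pseudocount of 1 FPKM, TMM scaling, DESeq2 size factors and centring on the median gene), 0 of 160 values changed sign and 2 moved by more than the mean half-width of their counting interval, both for SNHG15 with the pseudocount of 1 (-1.17 without PHA and -0.86 with PHA). The number of genes at least 2-fold lower with JQ1 in the presence of PHA was 1 in place of 2 under each of these 4 alternatives, because SNHG15 lay at -0.86 to -0.998, and none of the 4 moved the count without PHA. At a 1.5-fold threshold 5 genes were lower with JQ1 without PHA, 4 with PHA, and 1 was higher with PHA in DMSO. The shares of all genes tested were 19.3%, 17.8% and 5.59%, respectively. Some of these calls were at the edge of the threshold, 0.585 on the log2 scale. The call of SNHG6 with JQ1 without PHA was lost under each of the 4 alternatives (-0.55 to -0.582). Both calls of SNHG16 were lost under all alternatives but centring (-0.455 to -0.57 with JQ1 and PHA, 0.432 to 0.573 with PHA in DMSO). Under the 4 alternatives the medians moved by less than the mean half-width of the counting intervals of the 2 middle genes. No counting error of the median itself was computed. Over all genes without PHA, the share at least 2-fold lower with JQ1 was 5.50% without a filter on low values, and the share higher was 3.47% at a mean FPKM of at least 5. The PHA shares moved most. In DMSO the share higher was 1.17% at a mean of at least 5, and the share lower 2.12% without a filter and 0.648% at 5. In JQ1 the shares higher and lower were 1.97% and 2.07% without a filter and 0.543% and 0.648% at 5. The order of mean levels by the canonical transcript length was added after seeing the data and moved 8 of the 10 genes.

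No paired analysis was possible because each condition has 1 library and all share the number 1. The design allows no estimate of the spread between cultures, and at 149 counts, as for SNHG12 with DMSO, counting error alone is wide. Leaving out a library was not possible for the same reason.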
